A study of Mus musculus with 52 samples.

Results

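The 31 mouse genes described here encode subunits of the constitutive 26S proteasome. They were taken by name from a table of 55401 mouse genes measured in spinal cord, cortex and muscle. They comprise the 7 alpha-ring genes (Psma1 to Psma7) and 7 beta-ring genes (Psmb1 to Psmb7) of the 20S core, the 6 ATPases (Psmc1 to Psmc6) and 3 other subunits (Psmd1, Psmd2, Psmd4) of the base of the 19S regulatory particle, and 8 genes of its lid (Psmd3, Psmd6, Psmd7, Psmd8, Psmd11, Psmd12, Psmd13, Psmd14). All 31 passed the filter on low counts in each tissue. The rule names the genes and uses no measured value. Adrm1 and Sem1 are not among the members, and are counted below with the receptors and deubiquitinases of the 19S particle.

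The libraries came from mice that carry PFN1 C71G, a mutant human profilin gene that models the motor neuron disease ALS (amyotrophic lateral sclerosis), and from FVB wild types. In each tissue 3 groups were compared: wild type given vehicle, PFN1 C71G given vehicle, and PFN1 C71G given AAV-amiR-Atxn2, an adeno-associated virus that expresses an artificial microRNA against Atxn2. These groups had 6, 6 and 6 libraries in cord, 5, 6 and 6 in cortex, and 6, 5 and 6 in muscle, with both sexes in each. Wild-type mice were 36 weeks old, and each PFN1 group held 4 libraries from mice of 36 weeks and 2 from mice of 38 or 39 weeks, except the muscle vehicle group, which had 1 older mouse. Both PFN1 groups carried the transgene (its promoter is not given in the labels). The design has no control vector, so the effects of the virus and of Atxn2 silencing cannot be told apart. Poly(A) RNA was sequenced in read pairs, and the libraries held 66.48 to 111.9 M counts. The labels do not tie libraries to animals, so p-values measure the spread between libraries.

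The labels conflict for 4 cord libraries. Vehicle replicates 5 and 6 have library names of the amiR arm, and amiR replicates 1 and 2 have library names of the vehicle arm; titles were followed. Levels are in CPM, the counts of a gene divided by the M counts of its library. For members, other proteasome genes and cell type markers, these M counts are first multiplied by the library's TMM factor (explained below), unless stated. Vector rows stood at 0 CPM in the 2 libraries titled vehicle and at 46.69 to 52.17 CPM in the 2 titled amiR. Human PFN1 was at most 0.0143 CPM in wild-type libraries of any tissue and at least 170.2 CPM in PFN1 libraries. Mean Atxn2 was 119.3, 109.9 and 72.54 CPM in cord in the order wild type, PFN1 vehicle and PFN1 amiR, 102.7, 102.4 and 83.2 CPM in cortex, and 54.95, 66.02 and 61.7 CPM in muscle. Muscle amiR libraries held at most 0.0505 CPM of vector. Wild-type libraries carried the markers of their labelled tissue, such as the neuronal gene Snap25 at 2555 CPM in cord and 2178 CPM in cortex.

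The proteasome degrades proteins tagged with ubiquitin. The 19S particle binds the tagged protein, and its lid subunit Psmd14 removes the ubiquitin chain. The ATPases unfold the protein itself and thread it through the gate of the alpha rings, and the beta subunits Psmb5, Psmb6 and Psmb7 cleave it. Under inflammatory signals these 3 catalytic subunits can be replaced by Psmb8, Psmb9 and Psmb10, which form the immunoproteasome, and the 11S activator of Psme1 and Psme2 can take the place of the 19S particle. Transcription of the constitutive genes is raised together by the factor NRF1 (gene Nfe2l1) when proteasome activity falls. Ubiquitin-positive inclusions are a hallmark of ALS motor neurons, and in muscle the proteasome removes contractile proteins during atrophy.

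Promoters of 4 members are shown because the first 3 belong to genes that moved in cord or muscle, and the last carries the response element core of NRF1 close to its start. Each run is the 250 bases before the RefSeq start on the gene's own strand, in GRCm38.p6. The 4 runs hold 0 bases of annotated exons. Capitals mark a match to 1 of the 2 motifs searched on both strands: TGANNNNGC, the core bound by NRF1 and NRF2 with small Maf proteins, and CCAAT, the box bound by NF-Y. Matches of the motifs do not overlap in these runs. Psmd11 lies at chr11:80428365-80428614, Psmd14 at chr2:61711444-61711693, Psmd2 at chr16:20651402-20651651 and Psmb6 at chr11:70525107-70525356, all on the plus strand.
Psmd11: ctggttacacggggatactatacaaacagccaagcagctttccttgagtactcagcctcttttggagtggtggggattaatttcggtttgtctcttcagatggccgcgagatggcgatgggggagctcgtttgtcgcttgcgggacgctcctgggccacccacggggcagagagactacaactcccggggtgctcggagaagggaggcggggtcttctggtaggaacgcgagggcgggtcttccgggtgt
Psmd14: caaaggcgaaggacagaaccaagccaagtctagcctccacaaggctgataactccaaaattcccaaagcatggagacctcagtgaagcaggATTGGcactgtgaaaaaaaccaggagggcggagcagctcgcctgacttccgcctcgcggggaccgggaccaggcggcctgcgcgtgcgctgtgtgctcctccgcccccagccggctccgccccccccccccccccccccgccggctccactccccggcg
Psmd2: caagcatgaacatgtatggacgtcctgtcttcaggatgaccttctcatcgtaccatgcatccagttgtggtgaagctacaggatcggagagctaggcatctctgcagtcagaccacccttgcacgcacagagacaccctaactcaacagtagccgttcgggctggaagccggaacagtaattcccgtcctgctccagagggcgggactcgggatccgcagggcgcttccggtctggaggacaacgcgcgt
Psmb6: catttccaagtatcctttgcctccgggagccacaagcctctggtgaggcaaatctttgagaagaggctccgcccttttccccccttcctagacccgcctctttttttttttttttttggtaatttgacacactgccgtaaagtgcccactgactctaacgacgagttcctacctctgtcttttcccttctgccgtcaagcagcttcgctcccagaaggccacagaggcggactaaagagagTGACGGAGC

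The runs of Psmd11 and Psmd2 hold neither motif. The Psmd14 run holds a CCAAT box on the other strand (ATTGG), which begins 159 bases before the start. The Psmb6 run ends in TGACGGAGC, which begins 9 bases before the start. The runs shown do not stand for all members that fell in cord PFN1 vehicle. Of the others with a promoter, Psmd12, Psmc6, Psmd1, Psmb5 and a promoter of Psmc2 hold TGANNNNGC. Those of Psmc5, Psmc1, Psmc4, Psmd6 and Psmb4 do not. Among the 25 members with a RefSeq promoter, 9 (36%) held TGANNNNGC in any of their promoters, against 35.2% of 32851 single promoters of the same length. CCAAT was found in 10 members (40%) and in 33.8% of all promoters. Psma6 and Psmc2 have more than a single promoter, so the shares of members and of promoters are not in the same unit. These shares describe the letters of the window and were not tested.

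In wild-type tissue the members differed in their levels per length. Levels are given here as CPM per kilobase of the gene's coding transcript, and cannot be compared between tissues as amounts per cell. In cord they ran from 27.03 (Psma3, an alpha-ring subunit) to 172.9 ± 8.05 (SD, n = 6) for Psmc5, an ATPase of the base, with a median of 53.28. The ATPase gene Psmc1 followed at 129.2 ± 3.97 (SD, n = 6), so that the values of Psmc5 and Psmc1 lay beyond each other's spread. Psmc5 and Psmc1 were also the highest in cortex, at 84.76 ± 5.47 and 80.71 ± 2.60 CPM per kilobase (SD, n = 5), where their values lay within that spread. The cortex median was 39.73, and the lowest level was 17.31, for the alpha-ring gene Psma2.

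Muscle had another order. Psmb7, a catalytic beta subunit with trypsin-like activity, was highest at 153.4 ± 16.3 CPM per kilobase (SD, n = 6), followed by the ATPase gene Psmc3 at 104.9 and the catalytic gene Psmb6 at 104.5. Psmc5 was the 12th of 31 in muscle, at 79.14. The order in muscle depended on the length used. With all annotated exons as the length, Psma6 was first in muscle at 80.97 CPM per kilobase. Psmc5 was then 2nd at 74.71, Psmc1 was 3rd at 71.24 and Psmb7 was 7th at 52.03. Psmc5 and Psmc1 stayed the highest pair in cord and cortex. By the length of the coding transcript, the ratio of the highest to the lowest member was 6.40 in cord, 4.90 in cortex and 7.09 in muscle.

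**Figure D1:**
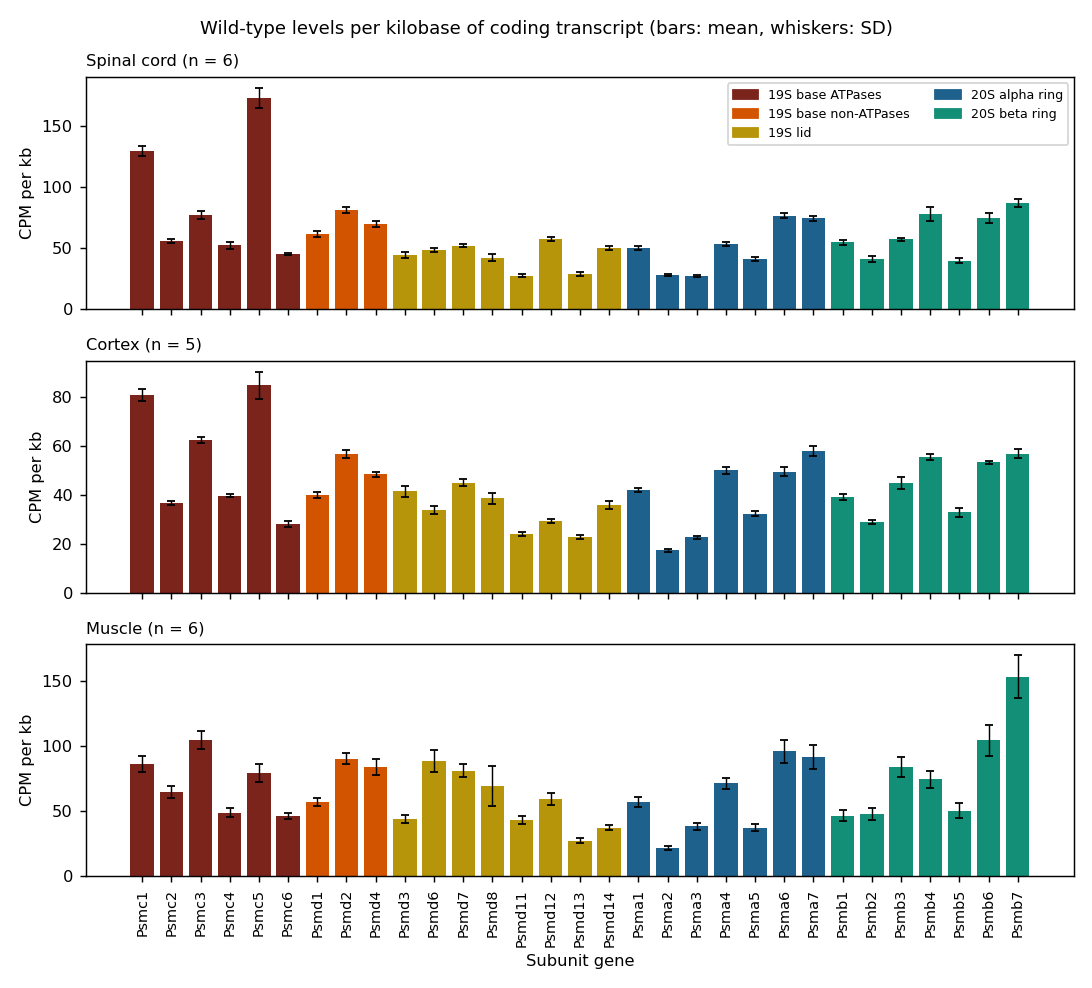
Levels of the 31 members in wild-type cord, cortex and muscle, in CPM per kilobase of coding transcript, with mean and SD over libraries (6 in cord, 5 in cortex and 6 in muscle). Psmc5 and Psmc1 are highest in cord and cortex, and Psmb7 is highest in muscle.

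Changes are given as log2 changes with their standard error (SE) from edgeR's quasi-likelihood test, with Benjamini-Hochberg adjusted p over all genes of the tissue. Libraries were scaled with TMM (trimmed mean of M-values), which sets the typical gene to no change. A gene is said to have risen or fallen at an adjusted p below 0.05.

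In cord, 11 of the 17 members in the 19S particle fell in PFN1 vehicle against wild type, while the alpha-ring genes of the 20S core stayed uncalled. Of the 31 members 14 (45.2%) fell and 0 rose, against 17.9% of 20307 genes tested that fell and 18.8% that rose. The changes were small: the members' median was -0.10, with a range of -0.34 to 0.07, and the median of all genes was 0.00. All 6 ATPases fell, as did 2 of 3 other base subunits, 3 of 8 lid subunits and 3 of 7 beta subunits, against 0 of 7 alpha subunits. The groups did not overlap for 8 members, each lower in PFN1 vehicle (11.1% of all genes tested were apart in that direction).

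Psmc5 (chr11:106256154-106263120, plus strand, GRCm38), an ATPase of the base, had the largest fall. Its lowest, median and highest TMM-scaled CPM were 215.1, 228.4 and 239.4 in wild type and 158.6, 179.4 and 195.3 in PFN1 vehicle. No PFN1 vehicle library reached the lowest wild-type library. The change was -0.34 (SE 0.07, adjusted p = 0.000536).

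Psmd12 (chr11:107479484-107504362, plus strand), a lid scaffold subunit, stood at 103.6, 109 and 112.5 CPM in wild type and 89.3, 94.6 and 98.22 CPM in PFN1 vehicle. The groups were again apart, and the change was -0.21 (SE 0.04, adjusted p = 0.000500). Psmd2 (chr16:20651652-20663414, plus strand), a large base subunit that serves as a docking platform for shuttle factors, stood at 229.7, 239.8 and 250.3 CPM against 194.5, 205.8 and 211.9 CPM. These did not overlap either, with a change of -0.23 (SE 0.05, adjusted p = 0.000735). Psmc1 (chr12:100110154-100123405, plus strand) fell by 0.21 on the log2 scale (SE 0.05, adjusted p = 0.00212), from 197.5, 206.5 and 214.8 CPM to 161.6, 177.4 and 190 CPM.

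The other ATPases fell less, with changes of -0.15 for Psmc2, -0.14 for Psmc3, -0.12 for Psmc4 and -0.14 for Psmc6. Psmd1, the second large base subunit, changed by -0.16, and Psmd4, a ubiquitin receptor of the base, missed the threshold at -0.12 (edgeR adjusted p = 0.059). In the lid, Psmd6 fell by 0.14 and Psmd14, the deubiquitinase, fell by 0.11 on the log2 scale. In the beta ring the catalytic genes Psmb5 and Psmb7 each changed by -0.17 and the structural gene Psmb4 by -0.15. Of 29 alternative settings or left-out libraries, Psmc4 was called in 14, Psmb4 and Psmd14 in 18 each, and Psmb5 in 20. Each other member that fell was called in at least 26.

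**Figure D2:**
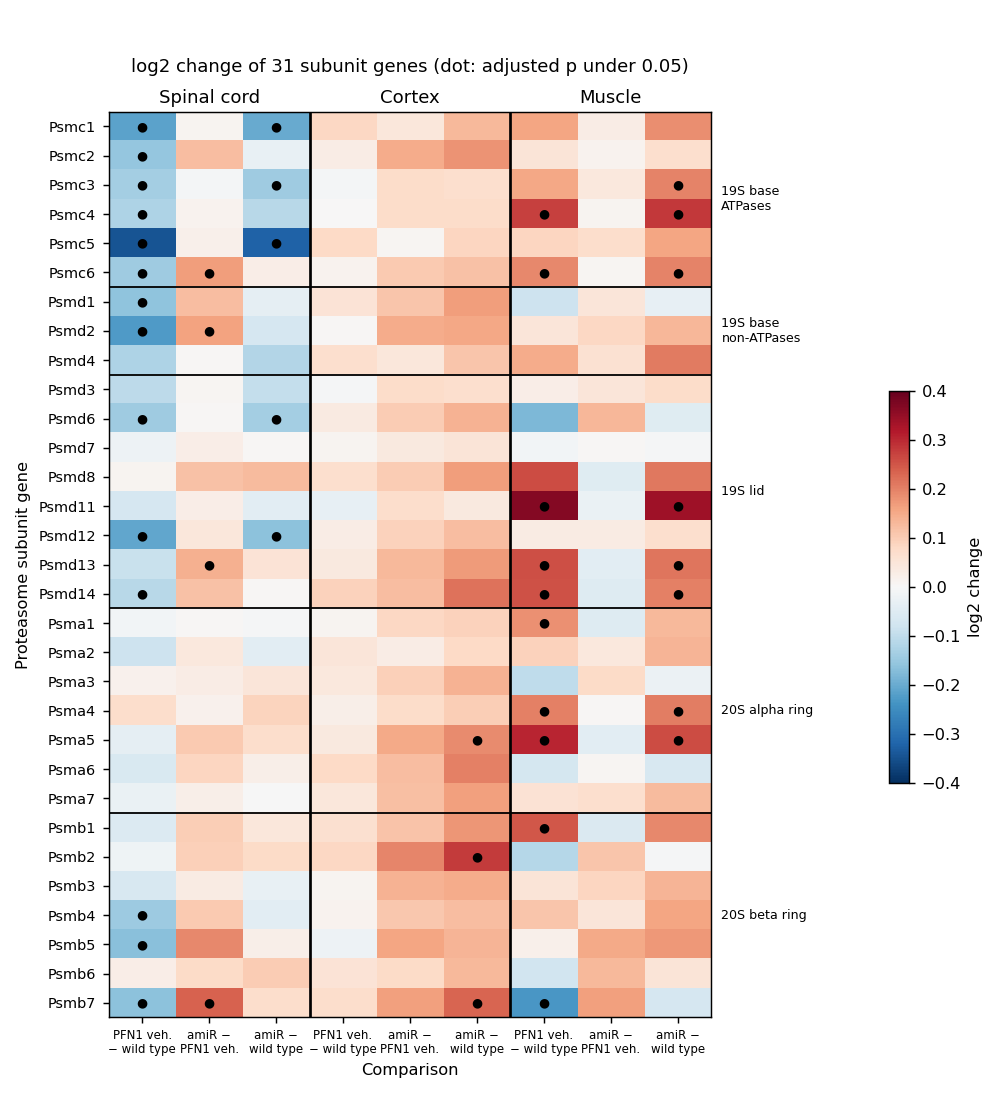
Log2 change of each of the 31 members (rows, by class) in the 9 comparisons within a tissue (columns), with called members marked. All 19S rows but Psmd8 are negative in cord PFN1 vehicle against wild type, and every row is positive in cortex PFN1 amiR against both other groups.

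The number of falls in cord depended on the scaling. With libraries scaled by total counts alone, the median of all genes shifted to 0.10 and the members' median to -0.01, so the members stayed 0.10 below the typical gene, but 4 fell (Psmc1, Psmc5, Psmd2, Psmd12) and 2 alpha-ring genes rose (Psma3, Psma4). With the 4 conflicting libraries left out 9 members fell, and with those libraries placed by library name 5 fell. The number of all genes that fell changed as well. It was 3644 in the main fit, 1993 with total counts alone, 3736 without those libraries and 2846 by library name.

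Cell type markers moved in the same comparison. Among neuronal markers 6 of 8 fell, and their summed CPM was 8603 to 9846 in wild type, 4865 to 6410 in PFN1 vehicle and 5616 to 9252 in PFN1 amiR. All 6 motor neuron markers fell (sums of 189.5 to 221.8, 37.65 to 157.5 and 161.7 to 402.4 CPM in the same order), and 9 of 10 microglial markers rose (304.9 to 424.8, 1012 to 1259 and 528.6 to 1236 CPM). In bulk tissue, fewer cells of a type and less RNA per cell cannot be told apart. The part of these markers in the change of the members was not tested.

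The balance between the 19S particle and the 20S core does not depend on the scaling of a library, since both sums come from the same library. The summed CPM of the 17 members of the 19S particle divided by that of the 14 members of the 20S core was 2.061, 2.111 and 2.159 (lowest, median, highest) in wild-type cord. It was 1.935, 1.946 and 1.988 in PFN1 vehicle and 1.894, 1.928 and 1.989 in PFN1 amiR, so neither PFN1 group overlapped wild type, while the PFN1 groups overlapped each other. The mean ratio in PFN1 vehicle was 7.48% below that of wild type, 6.04% below it without Psmc5, and 5.88% below it when each member had equal weight. The groups overlapped in cortex, at 1.867 to 2.045 in wild type, 1.915 to 2.016 in PFN1 vehicle and 1.854 to 1.965 in PFN1 amiR. They also overlapped in muscle, at 1.749 to 1.885, 1.822 to 1.972 and 1.814 to 1.987. These ratios are descriptions over 6 libraries a group in cord and 5 or 6 in the other tissues, with no test.

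Immunoproteasome genes went the other way in cord. Of the 5 genes of the immunoproteasome and 11S activator, 4 rose in PFN1 vehicle against wild type: Psmb8 by 1.31 (SE 0.13, adjusted p = 9.26e-07), Psmb9 by 0.92, Psme1 by 0.65 (adjusted p = 2.13e-07) and Psme2 by 0.46. Psmb10 changed by 0.13 and was not called with TMM scaling, but all 5 were called with total counts alone. Psmb8, which replaces Psmb5, stood at 2.843, 3.291 and 5.634 CPM in wild type and 7.834, 8.772 and 9.928 CPM in PFN1 vehicle, without overlap. It remained the minor form: the level of Psmb8 per kilobase was 4.19 to 9.05% of that of Psmb5 in wild type, 13.5 to 17.6% in PFN1 vehicle and 10.7 to 18.96% in PFN1 amiR. Against wild type the same 4 genes were called in PFN1 amiR, with Psmb8 at 1.41. Macrophage markers summed to 87.4 to 128.8 CPM in wild type, 1017 to 1259 CPM in PFN1 vehicle and 224.7 to 877.7 CPM in PFN1 amiR. Their sums were higher in both PFN1 groups than in wild type. Between the PFN1 groups they were lower in PFN1 amiR, while Psmb8 stood at 1.31 (vehicle) and 1.41 (amiR) against wild type. The part of these markers in the result was not tested.

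**Figure D3:**
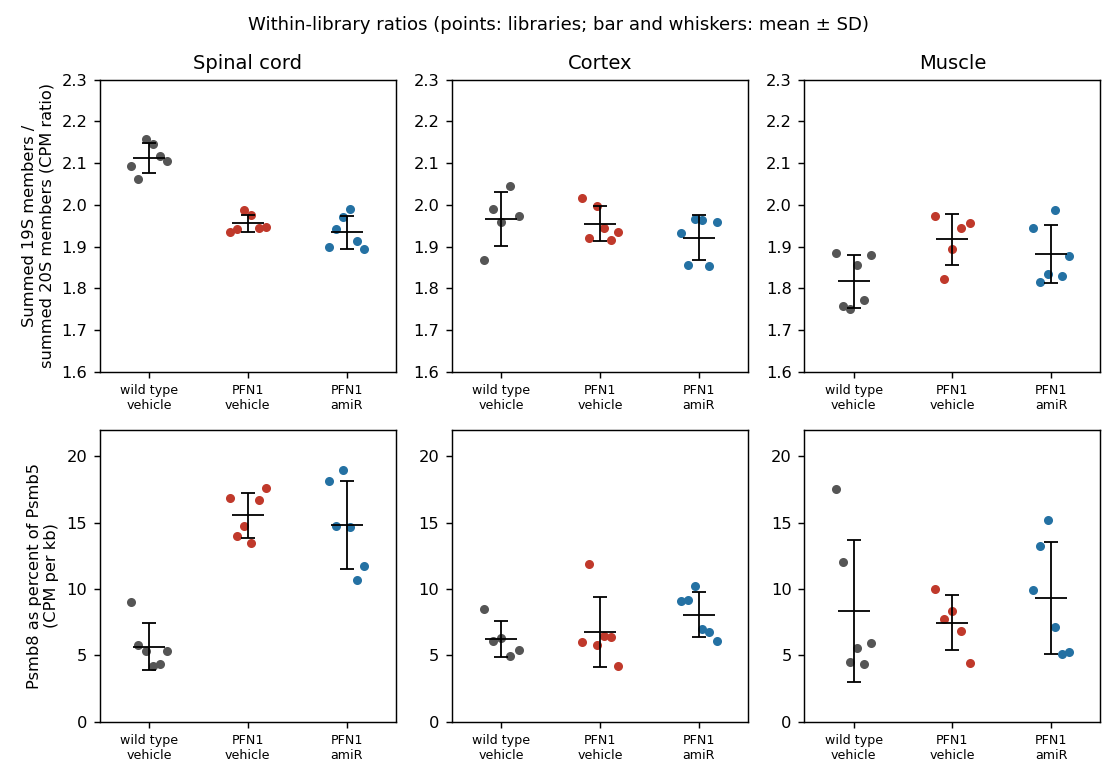
Ratios by library in each tissue and group: top, summed CPM of 19S members over 20S members (axis from 1.6 to 2.3); bottom, Psmb8 over Psmb5 per kilobase in percent. In cord, the wild-type points lie above both PFN1 groups in the top panel and below them in the bottom panel.

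Treatment was followed by slightly higher levels of some members in cord. Against PFN1 vehicle, 4 members rose in PFN1 amiR (2.92% of all genes rose). The members' median was 0.05, and 30 of 31 were higher, against 50.7% of all genes. Psmb7 (chr2:38588036-38644087, minus strand, within which Nek6 overlaps) stood at 94.71, 101 and 105 CPM in wild type, 84.44, 89.85 and 92.9 CPM in PFN1 vehicle and 95.34, 106.7 and 115.1 CPM in PFN1 amiR. The treated libraries lay above all vehicle libraries and overlapped wild type, with a change from vehicle of 0.24 (SE 0.04, adjusted p = 0.00686). Only Psmb7 and Psmd1 were apart in this way, 2 of 31 members, against 1.16% of all genes.

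The other 3 were Psmd13, a lid subunit, at 0.14 (SE 0.04, adjusted p = 0.0319), the ATPase gene Psmc6 at 0.17 (SE 0.04, adjusted p = 0.0333) and Psmd2 at 0.16 (SE 0.05, adjusted p = 0.0489). Psmd13 stood at 50.96, 53.96 and 55.42 CPM in PFN1 vehicle and 55.42, 59.95 and 63.56 CPM in PFN1 amiR. Psmc6 stood at 86.69, 89.71 and 98.33 CPM against 95.97, 100.2 and 113.8 CPM, and Psmd2 at 205.7, 231.5 and 253.2 CPM in PFN1 amiR. The ranges of these 3 genes touched or overlapped between the groups.

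All 4 treatment calls were lost with libraries placed by library name, and those of Psmc6, Psmd13 and Psmd2 also changed with other settings. By library name 0 genes of any kind were called between the treated and untreated cord groups. Without the 4 conflicting libraries 1 member, Psmb7, was called, while 355 of all genes rose. Vector rows followed the titles in these 4 libraries. Of 29 alternatives, Psmb7 was called in 28 (all but the one by library name), Psmc6 in 14, Psmd13 in 13 and Psmd2 in 3. Muscle fiber markers summed to 705.8 CPM in amiR replicate 2, against 47.94 to 79 CPM in the other amiR libraries, and without that library the members' median was 0.02.

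Against wild type, PFN1 amiR cord kept a fall of 5 members: Psmc5, Psmc1, Psmd12, Psmd6 and Psmc3 (11% of all genes fell, and the members' median was -0.01). These values share their wild-type libraries with those of PFN1 vehicle. Psmc5 stood at 160.4, 179.7 and 207.6 CPM in PFN1 amiR, below every wild-type library, with a change of -0.32 (SE 0.07, adjusted p = 0.00143), beside -0.34 in PFN1 vehicle. Psmc1 was at 164.8, 178 and 192.8 CPM and Psmd12 at 90.57, 98.19 and 102.2 CPM, both apart from wild type, which makes 3 members apart (5.47% of all genes). Their changes were -0.20 (SE 0.05, adjusted p = 0.00501) and -0.16 (SE 0.04, adjusted p = 0.00539). By total counts alone, 3 members fell (Psmc1, Psmc5, Psmd12) and 3 rose (Psma4, Psmb6, Psmd8). Among all genes 1473 fell and 3459 rose at that scaling.

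**Figure D4:**
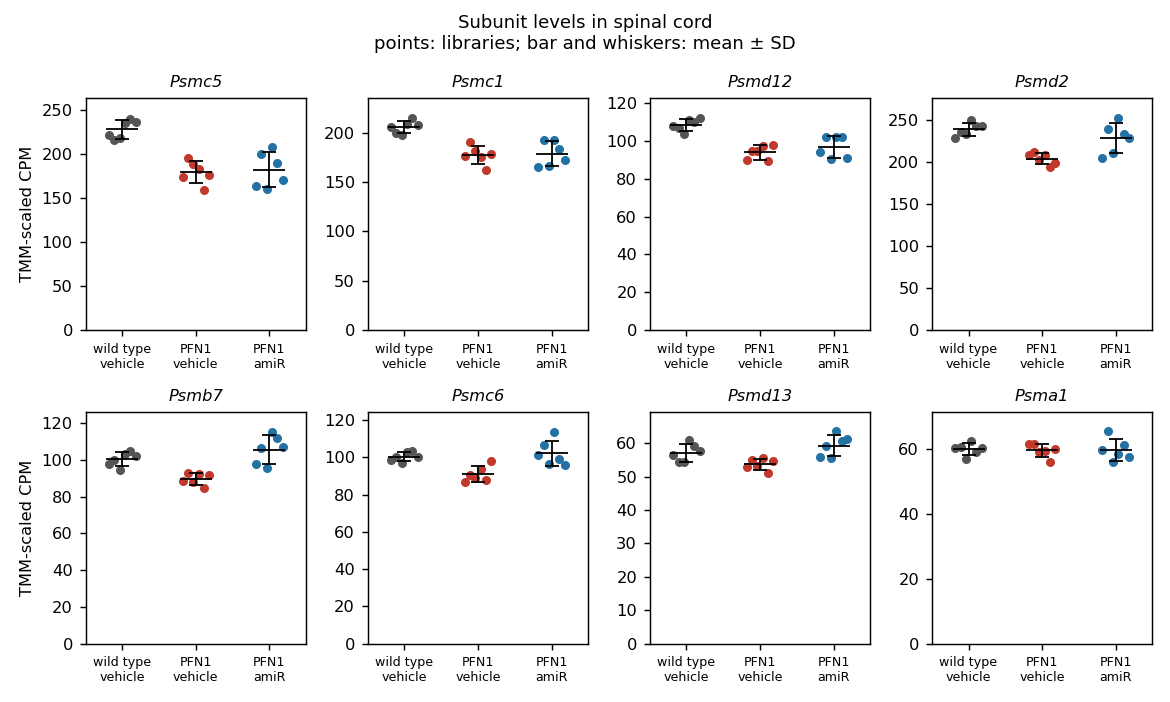
TMM-scaled CPM of 8 members in each cord library of the 3 groups, with group means and SD. Psmc5, Psmc1 and Psmd12 are below wild type in both PFN1 groups, and Psmb7 in PFN1 amiR lies above all PFN1 vehicle libraries.

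Genes that work with the particle were read from lists of the pathway. Of 11 receptors and deubiquitinases that bind the 19S particle, 6 fell in cord PFN1 vehicle against wild type, among them the ubiquitin ligase Ube3c (-0.46), which extends chains on stalled substrates, the deubiquitinases Uchl5 (-0.27) and Usp14 (-0.21), and the shuttle factor Ubqln2 (-0.23). Sem1, a small protein of the lid that is not among the members, rose by 0.16. Of 8 assembly chaperones tested, 1 fell: Psmd5, which helps to build the base, at -0.28. Of 9 genes of the NRF arm, Nfe2l1 fell by 0.23 on the log2 scale, with Ngly1, Ddi2 and Sel1l, while Nfe2l2, which encodes NRF2, rose by 0.76 and its partner Mafk by 0.54.

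Of 8 genes of p97, the ATPase that extracts ubiquitylated proteins for the proteasome, and its cofactors, 3 fell (Vcp at -0.12, Nploc4 at -0.20, Faf1 at -0.21) and 2 rose (Ubxn1, Ubxn4). Of 5 genes of ubiquitin and its first enzyme, Uba1 fell by 0.23 and Rps27a rose by 0.25 on the log2 scale. The nuclear activator gene Psme3 fell by 0.24 on the log2 scale, 1 of 3 other activator and inhibitor genes. Of the receptors and deubiquitinases 4 fell with total counts alone, as did 1 of the NRF genes. Vcp (-0.02), Nploc4 (-0.10) and Uba1 (-0.14) were then not called, and Faf1 was the only p97 gene that fell. Of the chaperones 2 rose and 1 fell at that scaling. In PFN1 amiR against PFN1 vehicle, Ube3c (0.34), Faf1 (0.35), Uba1 (0.26) and Psmd5 (0.15) rose and the p97 cofactor Ufd1 fell by 0.13 on the log2 scale; with total counts alone Uba1 and Psmd5 were not called.

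In cortex, the transgene alone left the members uncalled, and the levels were slightly higher in treated mice. Between PFN1 vehicle and wild type, 0 members were called (0.0247% of 20278 genes were called), 0 had an unadjusted p under 0.05, and DESeq2 called 0. The smallest adjusted p was 0.995, for Psmc1 (0.08) and Psmd14 (0.09). The ranges of the groups overlapped for every member.

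In PFN1 amiR against PFN1 vehicle, all 31 members were higher in cortex, with a median of 0.10 (range 0.01 to 0.20), while 47.5% of all genes were higher. Of these 0 were called by edgeR (0.0197% of all genes were called), 18 had an unadjusted p under 0.05 against 11.4% of all genes, and DESeq2 called 5. Among all genes DESeq2 called 212 higher and 128 lower. Members move together from library to library, so their number does not count independent results. The groups were apart for 6 members, each higher in PFN1 amiR (0.335% of all genes). Psmb7 had the smallest adjusted p, 0.187, at a change of 0.16, followed by Psma5, an alpha subunit, at 0.15 (edgeR adjusted p = 0.188).

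Against wild type, 3 members rose in cortex PFN1 amiR (0.666% of all genes rose), all 31 were higher and the median was 0.14. Psmb7 stood at 68.16, 67.15, 65.94, 62.89 and 65.33 CPM in the 5 wild-type libraries, at 61.61, 71.05 and 72.87 CPM (lowest, median, highest) in PFN1 vehicle and at 73.95, 78 and 79.29 CPM in PFN1 amiR. Every treated library was above every untreated one, with a change from wild type of 0.23 (SE 0.05, adjusted p = 0.0376). Psmb2 (chr4:126677630-126709714, plus strand), a structural beta subunit, was at 23.98 to 26.24 CPM in wild type, 23.76, 26.87 and 28.3 CPM in PFN1 vehicle and 28.46, 29.53 and 33.21 CPM in PFN1 amiR. It too was apart from both untreated groups, and rose against wild type by 0.28 (SE 0.06, adjusted p = 0.0418).

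Psma5 (chr3:108256926-108279974, plus strand, overlapping 1700010K24Rik) was at 38.35 to 41.43 CPM in wild type, 37.8, 40.97 and 43.46 CPM in PFN1 vehicle and 43.09, 46.01 and 46.71 CPM in PFN1 amiR. The treated libraries were apart from wild type and overlapped PFN1 vehicle, and the change from wild type was 0.19 (SE 0.04, adjusted p = 0.0482). The groups were apart for 17 members, each higher in PFN1 amiR, against 3.13% of all genes. The count of 3 depended on the settings: DESeq2 called 13, the fit with total counts alone called 0, and leaving out single libraries gave 0 to 8. Among all genes 135 rose in the main fit, 803 with DESeq2 and 11 with total counts alone. The only called gene of the pathway lists in cortex was Uba1, the enzyme that activates ubiquitin, which rose by 0.23 in PFN1 amiR against wild type. With total counts alone Uba1 was not called (0.24, edgeR adjusted p = 0.0587). No marker list of a cell type moved in cortex beyond 1 T cell gene.

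In muscle, the members rose about as often as other genes in PFN1 vehicle against wild type, and Psmd11 had the largest rise of the 31. Under TMM scaling 9 of 31 rose, against 25.7% of 16949 genes tested that rose, so the share of members (29%) was near the background. One member, Psmb7, fell (24.8% of all genes fell). The 9 were 2 of 6 ATPases, 3 of 8 lid genes, 3 of 7 alpha genes and 1 of 7 beta genes, and the members' median was 0.09 against 0.01 for all genes. Without wild-type replicate 3 that median was 0.14, and without PFN1 vehicle replicate 2 it was 0.05. The groups were apart for 5 members in the higher direction (14.5% of all genes).

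Psmd11 (chr11:80428615-80473248, plus strand), a lid subunit whose level is known to limit assembly of the particle in embryonic stem cells, had the largest rise. It stood at 109.5, 124.6 and 133.5 CPM (lowest, median, highest) in wild type, at 168.3, 166.2, 140.7, 152.5 and 161.5 CPM in the 5 PFN1 vehicle libraries and at 134.7, 151 and 181.2 CPM in PFN1 amiR. All libraries of both PFN1 groups were above all wild-type libraries, which held in PFN1 amiR for this member alone (7.52% of all genes). The change in PFN1 vehicle was 0.37 (SE 0.07, adjusted p = 0.000696).

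Psma5 stood at 40.9, 46.01 and 50.93 CPM in wild type and at 59.45, 59.12, 53.52, 55.32 and 58.96 CPM in PFN1 vehicle, without overlap, a change of 0.30 (SE 0.07, adjusted p = 0.00200). Psmd14 (chr2:61711694-61800376, plus strand) stood at 54.71, 56.69 and 61.63 CPM against 70.56, 68.75, 64.3, 66.13 and 74.43 CPM, a change of 0.26 (SE 0.07, adjusted p = 0.00500). Psmc4 (chr7:28041707-28050101, minus strand), an ATPase, stood at 62.7, 70.74 and 75.27 CPM against 90.09, 84.14, 80.35, 86.61 and 87.66 CPM, a change of 0.27 (SE 0.08, adjusted p = 0.0109). The groups did not overlap for these genes. The other members that rose were Psmd13 (0.26), the beta subunit Psmb1 (0.25), the alpha subunits Psma4 (0.20) and Psma1 (0.18), and the ATPase gene Psmc6 (0.19).

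Psmb7 had the opposite sign under TMM scaling. It stood at 150, 177.8 and 207.1 CPM in wild type and 145.2, 155.6, 151, 153.5 and 159 CPM in PFN1 vehicle, with overlap, and changed by -0.23 (SE 0.07, adjusted p = 0.0142). Its change with total counts alone was 0.11 (edgeR adjusted p = 0.160), so its direction depended on the scaling.

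The scaling set most of the picture in muscle. With total counts alone 29 members rose and 0 fell, with a median of 0.42. Among all genes 9271 then rose and 1302 fell, against 4351 and 4201 under TMM. The median of all genes also moved to 0.35, and the members lay 0.08 above it. That distance was 0.07 under TMM, 0.16 with RNA integrity as a covariate and 0.04 without the filter on low counts. With that covariate 11 members rose and 0 fell, beside 3723 and 3576 of all genes. Psmb7 was then at -0.15 and not called. TMM factors were 0.8391 to 0.9768 in wild type, 1.041 to 1.176 in PFN1 vehicle and 0.979 to 1.07 in PFN1 amiR. The summed CPM of the 31 members without TMM was 2841 ± 64.5 (SD, n = 6) in wild type and 3788 ± 201 (SD, n = 5) in PFN1 vehicle, without overlap. With TMM it was 3194 ± 220 (SD, n = 6) and 3386 ± 137 (SD, n = 5), with overlap. Psmd11, Psma5, Psmd14 and Psmc4 rose under each of the 26 alternatives tried.

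Muscle fiber markers summed to 115200 to 142800 CPM in wild type, 73520 to 92220 CPM in PFN1 vehicle and 90900 to 103500 CPM in PFN1 amiR; 6 of 10 fell and 2 rose. All 6 macrophage markers and 5 of 8 fibroblast and adipocyte markers rose. Neuronal markers were near 0, at a sum of at most 3.557 CPM. The part of these markers in the change of the members was not tested.

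**Figure D5:**
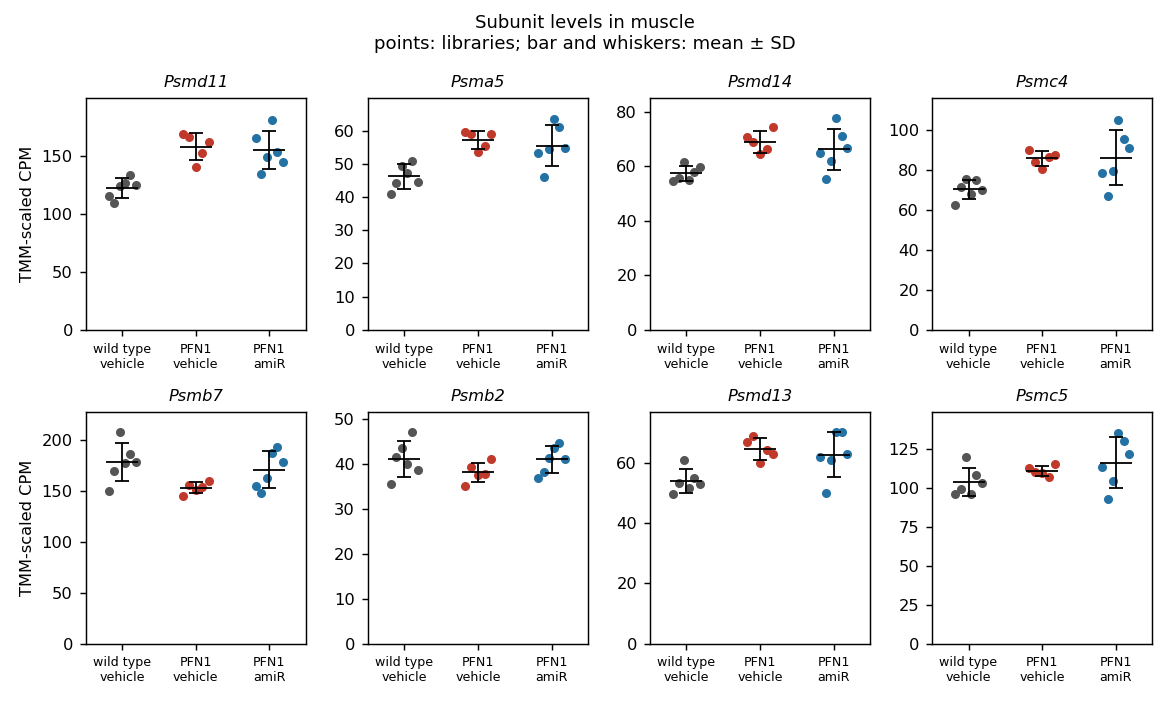
TMM-scaled CPM of 8 members in each muscle library of the 3 groups, with group means and SD. Psmd11, Psma5, Psmd14 and Psmc4 in PFN1 vehicle lie above all wild-type libraries, and the PFN1 amiR libraries are spread over both ranges for Psma5, Psmd14 and Psmc4.

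No member was called between treated and vehicle muscle. In PFN1 amiR against PFN1 vehicle 0 members were called by edgeR (1.12% of all genes were called) or DESeq2, and 1 had an unadjusted p under 0.05. The smallest adjusted p were 0.228 for Psmb7 (0.16) and 0.365 for Psmb2 (0.11). In PFN1 amiR against wild type 8 members rose (17.5% of all genes rose), with a median of 0.14, in a comparison that shares its wild-type libraries with the first. Psmd11 changed by 0.34 (SE 0.07, adjusted p = 0.00151), Psma5 by 0.26 (SE 0.07, adjusted p = 0.00640) and Psmc4 by 0.28 (SE 0.08, adjusted p = 0.00995), and Psmc6, Psmd14, Psmd13, Psma4 and Psmc3 rose with them.

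Single libraries decided the count of members called in treated muscle. Over all members, amiR replicate 2 lay 0.26 below and replicate 4 lay 0.20 above the group mean on the log2 scale. In replicate 2, Psma5 was at 46.09 CPM and Psmd14 at 55.23 CPM, within the wild-type range. Against wild type, 17 members rose without replicate 2 and 4 rose without replicate 4.

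Pathway genes changed in both directions in muscle PFN1 vehicle against wild type under TMM scaling. Of 11 receptors and deubiquitinases, 2 rose (Usp14 at 0.26, Rad23b at 0.19) and 5 fell, among them the shuttle factor Ubqln4 (-0.48) and the adaptor Ecpas (-0.40). Of 8 assembly chaperones tested, Psmd5 (0.32) and Psmd10 (0.21) rose and Psmd9 fell (-0.22). The transgene effect on Psmd5 was lower in cord than in muscle by a difference of -0.64 (SE 0.07, edgeR adjusted p = 1.01e-09). Scaled by total counts, 6 of the 11 rose and 1 fell, and 7 of the 8 chaperones rose.

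Of 9 NRF genes, Nfe2l2 (0.55) and Sel1l (0.22) rose, and 4 fell, among them Keap1, the adaptor that marks NRF2 for degradation (-0.52), and Ngly1 (-0.26). Of 5 ubiquitin ligases of muscle atrophy, Fbxo30 (0.83) and Fbxo21 (0.41) rose and Fbxo31 fell (-0.71), while Trim63 changed by 0.23 (edgeR adjusted p = 0.312) and Fbxo32 by -0.03 (edgeR adjusted p = 0.907). Among p97 cofactors Ubxn4 rose by 0.81, and the activator gene Psme4 fell by 0.44 on the log2 scale. The ubiquitin genes were split, with Rps27a at 0.37 and Ubb at -0.39. With total counts alone 5 NRF genes rose and 1 fell, and Ngly1 was at 0.07. In PFN1 amiR against wild type Trim63 was called, at 0.69, and Fbxo31 was the only called gene of these lists between PFN1 amiR and PFN1 vehicle (0.35).

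The effect of the transgene on the members differed between cord and muscle. In a joint model of 22316 genes, 17 members were lower in cord than in muscle (16.5% of all genes were lower) and 0 were higher (14.5% of all genes), with a median difference of -0.24 against -0.03 for all genes. All 6 ATPases were among them, with 2 of 3 other base subunits, 4 of 8 lid, 3 of 7 alpha and 2 of 7 beta genes. The difference was -0.47 for Psmd11 (SE 0.07, adjusted p = 2.91e-06), -0.40 for Psmd14 (SE 0.08, adjusted p = 4.52e-05) and -0.43 for Psmc4 (SE 0.09, adjusted p = 8.47e-05). With total counts alone 27 were lower, with the median of all genes at -0.21. Among all genes 6095 were then lower, against 3682 in the main fit.

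Between cord and cortex 7 members had a lower transgene effect in cord (4.23% of all genes): Psmc5 at -0.44 (SE 0.10, adjusted p = 0.00150), Psmc1 at -0.32 (SE 0.08, adjusted p = 0.00828), Psmd12 at -0.26 (SE 0.07, adjusted p = 0.00874), and Psmd1, Psmd2, Psmd14 and Psmb7. With total counts alone 1 was called, and with DESeq2 14. Among all genes 357 were lower with total counts alone and 2303 with DESeq2, against 944 in the main fit. Between muscle and cortex 5 were higher (15% of all genes) and 1 lower (12.7%): Psmd11 at 0.41 (SE 0.08, adjusted p = 4.64e-05), Psmc4 at 0.29, Psma5 at 0.28, Psmd13 at 0.23 and Psma1 at 0.18, against Psmb7 at -0.29. That split depended on the scaling, since DESeq2 called 2 higher and 6 lower, and total counts alone 24 higher and 0 lower. Among all genes DESeq2 called 2870 higher and 3893 lower, and total counts alone 7071 higher and 986 lower.

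The effect of treatment was not found to differ between tissues for any member. Among genes of the pathway lists, the effect was higher in cord than in muscle for Uba1 (0.26, edgeR adjusted p = 0.0269) and Psmd5 (0.24, edgeR adjusted p = 0.0495). Of the members, 0 were called between cord and muscle (3.04% of all genes were called), 1 had an unadjusted p under 0.05 and DESeq2 called 0; the smallest adjusted p in edgeR were 0.278 for Psmd13 and 0.336 for Psmd6. Between cord and cortex 0 were called (0.0672% of all genes), 0 had an unadjusted p under 0.05 and DESeq2 called 0, with the smallest adjusted p at 0.716 for Psmd6 and 0.723 for Psma1.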

How the data were processed

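Poly(A) RNA of 52 libraries (18 cord, 17 cortex, 17 muscle) was sequenced. The authors deposited expected counts per gene; the submitters' processing notes name STAR 2.7.2d, RSEM 1.3.2, GRCm38 and GRCh38. The annotation release and strand setting are not given in the sources used here, so reads of overlapping genes may be shared. Expected counts were rounded. Rows other than mouse genes (human PFN1, vector and spike-in rows) held at most 0.167% of a library's counts and were left out of library sizes and tests. Symbols were found for 55141 of 55401 genes.

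Each tissue was fitted with edgeR 4.0.16 (R 4.3.3, limma 3.58.1; quasi-likelihood test, group and sex, TMM, filterByExpr, Benjamini-Hochberg over all genes tested, threshold 0.05). Differences between tissues came from a joint model with group and tissue-by-sex terms, which treats libraries as independent. DESeq2 1.42.0, other scalings, filters, covariates, labels and left-out libraries were alternatives. Genes named with values were the called members of smallest adjusted p and largest change, and up to 3 called genes of each list by adjusted p; further called members and list genes are named to complete counts, chosen after their values were seen. Members and lists were chosen with earlier results of these data known. The test was checked on simulated data. Total counts were 73.22 to 109.3 M in cord, 67.5 to 90.45 M for cortex and 66.48 to 111.9 M for muscle libraries. RNA integrity numbers were 7.1 to 8.3.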

Additional observations from a re-analysis of the deposited data

Results flagged for a closer look

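In 5 of 88 sets of libraries examined, 1 library stood apart from the rest of its group; chance gives about 1 in 20. In each case the gap to the nearest library is given as a share of the group's range. Psmd14, the lid deubiquitinase, was at 51.04 CPM in cortex PFN1 vehicle replicate 4, against 59.06 to 63.21 CPM in the other 5 (share 0.659). Psmb8 was 9.047% of Psmb5 per kilobase in cord wild-type replicate 1, against 4.189 to 5.774% in the others (share 0.674), and 11.89% in cortex PFN1 vehicle replicate 2, against 4.2 to 6.449% (share 0.708). Psmb10 was 18.64% of Psmb7 in cord PFN1 vehicle replicate 1, against 16.02 to 16.92% (share 0.656), and 16.37% in cord PFN1 amiR replicate 3, against 13.83 to 14.51% (share 0.732).

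The transgene effect differed between tissues in the joint edgeR model for the members of smallest adjusted p. Between muscle and cortex the difference was 0.41 for Psmd11, 0.28 for Psma5, 0.29 for Psmc4 and -0.29 for Psmb7. Between cord and muscle it was -0.47 for Psmd11, -0.40 for Psmd14 and -0.43 for Psmc4. Between cord and cortex it was -0.44 for Psmc5, -0.32 for Psmc1 and -0.26 for Psmd12.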

How the results depend on the processing

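For the counts of called members, medians and wild-type levels, 1009 alternative values stayed near the main value and 100 moved; for single members 3133 kept their direction and their side of the threshold, whether called or not, 340 lost a call, 2 gained one, 1 reversed and 1 uncalled value moved. A median was near if it shifted by less than the SD between libraries, so a near median could change sign. The median of cord PFN1 amiR against PFN1 vehicle went from 0.045 to -0.0060 with total counts. That of the transgene effect, muscle minus cortex, went from 0.055 to -0.0021 without older mice. A count was near within a set factor, such as 10 members called in place of 14. Cord results follow the titles, which conflict with library names in 4 libraries, and members move together. Depth was not varied. Unless stated, the cause of a change was not tested.

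In cord PFN1 vehicle against wild type, members called were 6 with total counts (median -0.0082), 5 by library name (median -0.053) and 9 without the 4 conflicting libraries. For cord PFN1 amiR against PFN1 vehicle they were 7 with DESeq2, 1 with total counts, no filter, RIN, no older mice, only the 2 arms or without the conflicting libraries, and 0 by library name (median -0.032; -0.069 against wild type). In cortex PFN1 amiR, DESeq2 called 5 against PFN1 vehicle and 13 against wild type; against wild type, total counts, no filter, RIN and no older mice gave 0, and only the 2 arms gave 7. In muscle, total counts gave 29 called (median 0.42) in PFN1 vehicle and 27 (median 0.34) in PFN1 amiR against wild type, and a median of -0.091 between the PFN1 groups; RIN gave 16 and no older mice 17 in PFN1 amiR against wild type. Psmb7 in muscle PFN1 vehicle reversed with total counts, to 0.11. Counts over all genes changed with these settings too. In cord PFN1 amiR against PFN1 vehicle, 593 genes rose in the main fit and 1145 with DESeq2. In muscle PFN1 amiR against wild type, 2965 rose in the main fit, 6184 with total counts, 2185 with RIN and 3104 without older mice.

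For the transgene effect, cord minus muscle, total counts gave 27 (median -0.45), and RIN a median of -0.35. For cord minus cortex, DESeq2 gave 14 (median -0.21, also with its size factors in edgeR), total counts 1 (median -0.073), no filter 3, no sex term 4, RIN 4, library names 3, no conflicting libraries 3, and no older mice a median of -0.22. For muscle minus cortex, DESeq2 and its size factors gave a median of -0.022, and total counts 24 (median 0.34). For the treatment effect, total counts gave a median of 0.10 for cord minus muscle, and for cord minus cortex no older mice gave 0.027 and library names -0.12. With all annotated exons as the length, the median wild-type level was 28.7 in cord, 19.62 in cortex and 34.86 CPM per kilobase in muscle.

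Correlations could not settle whether replicate numbers pair libraries, since low numbers are female and high numbers male, and sex was not adjusted for. In cord same-numbered libraries correlated at -0.16 to 0.34 (best at their own number for 6 of 18). The values were -0.42 to 0.63 in cortex (6 of 16) and -0.26 to 0.58 in muscle (5 of 16). With a replicate block in place of sex, called members were 13, 1 and 5 in cord (PFN1 vehicle against wild type, PFN1 amiR against PFN1 vehicle, PFN1 amiR against wild type), 0, 0 and 0 in cortex, 9, 0 and 5 in muscle, and 18, 4 and 6 for the transgene effect in cord minus muscle, cord minus cortex and muscle minus cortex.

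Leaving out 1 library at a time gave 10 to 17 called members in cord PFN1 vehicle against wild type, 1 to 6 in PFN1 amiR against PFN1 vehicle, 5 to 6 in PFN1 amiR against wild type, 0 to 8 in cortex PFN1 amiR against wild type, 7 to 12 in muscle PFN1 vehicle and 4 to 17 in muscle PFN1 amiR against wild type, and 16 to 20, 3 to 8 and 5 to 11 for the 3 transgene differences in the same order. In cord PFN1 amiR against PFN1 vehicle, 1 or 2 were called without any 1 of vehicle replicates 1 to 6 or amiR replicates 2, 4 and 5. In cortex PFN1 amiR against wild type, 0 were called without any 1 of wild-type replicates 1 to 5 or amiR replicates 2 to 6, 1 without PFN1 vehicle replicate 6, 8 without PFN1 vehicle replicate 2 or 4, and 6 without amiR replicate 1. In muscle PFN1 amiR against wild type, 16 were called without wild-type replicate 3, 17 without amiR replicate 2, 4 without amiR replicate 4, and 5 without wild-type replicate 1, 4 or 6 or amiR replicate 1 or 5. For cord minus cortex, 3 or 4 were called without cord wild-type replicate 2 or 4, cord PFN1 vehicle replicate 4, 5 or 6, cortex wild-type replicate 1, 3 or 4, or cortex PFN1 vehicle replicate 1, 3 or 6. For muscle minus cortex 11 were called without muscle wild-type replicate 3.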
